A study of Mus musculus with 2 samples.

Results

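The miRs described here come from the genes of the miR-143/miR-145 cluster and from the miR-199 and miR-214 genes, and were counted in sperm of naive wild-type mice. They were chosen by name: every entry of the count tables with a part called miR-143, miR-145a, miR-145b, miR-199a, miR-199b or miR-214 was kept, whichever arm of the hairpin it came from. This gave 10 of the 1886 entries, 5 for miR-143/miR-145 and 5 for miR-199/miR-214. A single entry joins miR-199a-3p and miR-199b-3p. The small RNA was sequenced from sperm of adult C57BL/6J males, 3 months old by the sample labels, in 2 libraries of 1 condition that the methods call independent biological replicates. The labels give no genotype other than wild-type and no treatment, although the names of the deposited tables carry a treatment mark whose meaning was not resolved. How many mice went into a library is not given in the sources used here. The sperm had swum out of the dissected epididymis, and a detergent wash was meant to remove cells of the surrounding tissue.

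A miR is cut from a hairpin RNA, whose 2 arms, called 5p and 3p, can each give a mature miR. The bases from position 2 to position 8 of a mature miR, its seed, largely decide which messenger RNAs it represses. miR-143 and miR-145 are made from the same primary transcript and are best known from smooth muscle, where they promote the contractile state, and from fibroblasts. miR-199 and miR-214 are known from mesenchyme, fibroblasts and developing skeleton, and in mice a pair of their hairpins lies in the same non-coding RNA, Dnm3os, whose loss disturbs skeletal growth. In small RNA of a whole sample, fewer cells of a type and less of a miR per cell cannot be told apart.

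The sequences of the miR-199/miR-214 members show which reads can be assigned to a gene and which cannot. They are RefSeq sequences for GRCm38.p6, whose miR table matched 5 of the 11 member names, and capitals mark the seed.
miR-199a-5p: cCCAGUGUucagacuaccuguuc
miR-199a-3p: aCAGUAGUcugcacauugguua
miR-199b-3p: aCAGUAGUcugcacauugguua
miR-214-5p: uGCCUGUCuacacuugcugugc
miR-214-3p: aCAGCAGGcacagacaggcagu
The 3p miRs of the miR-199a and miR-199b genes have the same 22 bases. Their reads were therefore counted as 1 joined entry and cannot be divided among the genes. The 4 different sequences have 4 different seeds. Over all mature miRs in the RefSeq table, the only miR of another gene with one of these seeds was miR-761, which shares CAGCAGG with miR-214-3p and had no read in either library. miR-143-5p, miR-143-3p, miR-145a-5p, miR-145a-3p, miR-145b and miR-199b-5p are given by name.

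The 5p side of the miR-199 hairpins differs between the genes. The hairpins are shown with the annotated mature miRs in capitals, since the same 3p run stands in 3 of them.
Mir199a-1: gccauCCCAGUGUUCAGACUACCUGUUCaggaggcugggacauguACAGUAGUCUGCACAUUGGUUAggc
Mir199a-2: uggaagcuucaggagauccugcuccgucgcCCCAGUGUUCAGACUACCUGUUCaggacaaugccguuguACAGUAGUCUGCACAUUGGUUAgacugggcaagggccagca
Mir199b: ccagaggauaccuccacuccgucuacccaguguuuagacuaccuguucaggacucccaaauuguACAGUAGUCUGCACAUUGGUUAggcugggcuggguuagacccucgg
Mir214: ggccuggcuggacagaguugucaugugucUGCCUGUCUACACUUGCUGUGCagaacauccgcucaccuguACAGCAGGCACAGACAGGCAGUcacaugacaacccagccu
The stretch of the Mir199b hairpin most like miR-199a-5p, bases 26 to 48 of the hairpin, differs from it by C10U alone, with positions counted from 1 at the 5′ end of miR-199a-5p. The longest run of bases that both share is 13, which is shorter than the 15 bases kept as the minimum read length. Any read that lies wholly inside these 23 bases therefore covers the differing base.

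In the GENCODE M21 annotation of GRCm38, Mir199a-2 (ENSMUSG00000070126.1, chr1:162217814-162217923, plus strand) and Mir214 (ENSMUSG00000065516.1, chr1:162223368-162223477, plus strand) are separated by 5444 bases. Both lie within exons of Dnm3os and, on the opposite strand, within introns of Dnm3, which codes for a dynamin. Mir199a-1 (ENSMUSG00000065547.1, chr9:21496495-21496564, minus strand) lies in an intron of Dnm2 and Mir199b (ENSMUSG00000092807.1, chr2:32318460-32318569, plus strand) in an intron of Dnm1, again antisense to a dynamin gene.

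The libraries held 4049599 and 5648067 reads assigned to miRs, in the order of replicate 1 and replicate 2. Abundance is given as CPM, the reads of an entry per 1000000 miR reads of its library, and a depth of 3 reads corresponds to 0.741 and 0.531 CPM. Mature miRs are of nearly the same length, so no length correction was made. How well each sequence was recovered by library preparation and matching was not measured, so ratios between different miRs and between arms are ratios of reads. With 2 libraries of 1 condition no test between conditions was possible, and all intervals below cover counting error only. They treat reads as independent. Reads without molecular identifiers are not independent molecules, so the intervals can be too narrow even for counting error. Male germ cell miRs, a list of miR-34b, miR-34c and 3 miR-449 genes, made up 0.390% and 0.164% of the miR reads. Both libraries thus held miRs of this list as a small share, although miR-449b, miR-449c-3p and miR-449c-5p had no read in either library. How much of each library came from sperm was not measured.

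Of the 10 member entries, 8 had at least 1 read in each library. miR-143-3p stood far above the others and ranked 3rd among the 378 entries with a read in both libraries. Replicate 1 gave 165421 reads of it, 4.08% of the library (Wilson 95% interval 4.07% to 4.10%), and replicate 2 gave 349579 reads, 6.19% (6.17% to 6.21%), with a mean of 51371 ± 14881 CPM (SD, n = 2). Directly above it stood miR-10a-5p with 24.4% ± 1.91 (SD, n = 2) of the miR reads and directly below it miR-191-5p with 2.55% ± 1.23 (SD, n = 2). The range of miR-143-3p overlapped with neither of them.

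The arms of miR-145a, the partner of miR-143 in its transcript, were lower by more than 2 orders of magnitude. miR-145a-5p had 470 reads in replicate 1, or 116 CPM, and 1146 reads in replicate 2, or 203 CPM, with a mean of 159 ± 61.4 CPM (SD, n = 2). miR-145a-3p had 493 and 1030 reads, or 122 and 182 CPM, with a mean of 152 ± 42.9 CPM (SD, n = 2). The arms changed order between the libraries and did not differ beyond their spread. miR-145b, which is listed without an arm, and miR-143-5p had no read in either library. By counting error alone, this allows up to 0.741 CPM in replicate 1 and 0.531 CPM in replicate 2 for each.

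Among the miR-199/miR-214 members the joined entry of miR-199a-3p and miR-199b-3p was the most abundant. In replicate 1 it had 768 reads, equal to 190 CPM (177 to 204), and in replicate 2 it had 1275 reads, equal to 226 CPM (213.7 to 238.5), with a mean of 208 ± 25.5 CPM (SD, n = 2). It ranked 55th, just ahead of the miR-145a arms at ranks 60 and 63, and its range over the 2 libraries overlapped with that of miR-145a-5p. miR-199a-5p, which 2 hairpins can give, had 158 and 281 reads, or 39.0 and 49.8 CPM, and ranked 107th.

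miR-214 and miR-199b-5p were the rarest. Replicate 1 had 47 reads of miR-214-3p, equal to 11.6 CPM (8.73 to 15.4), and replicate 2 had 96, equal to 17.0 CPM (13.9 to 20.8), while miR-214-5p had 18 and 30 reads, or 4.44 and 5.31 CPM. miR-199b-5p had 3 and 13 reads, or 0.741 CPM (0.252 to 2.18) and 2.30 CPM (1.35 to 3.94). From miR-145a-3p downwards, the range of each of these entries over the 2 libraries lay below that of the entry before it: miR-145a-3p, miR-199a-5p, miR-214-3p, miR-214-5p and miR-199b-5p kept this order in both libraries. For miR-214-5p and miR-199b-5p the counting intervals of replicate 2, 3.72 to 7.58 and 1.35 to 3.94 CPM, overlapped.

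**Figure D1:**
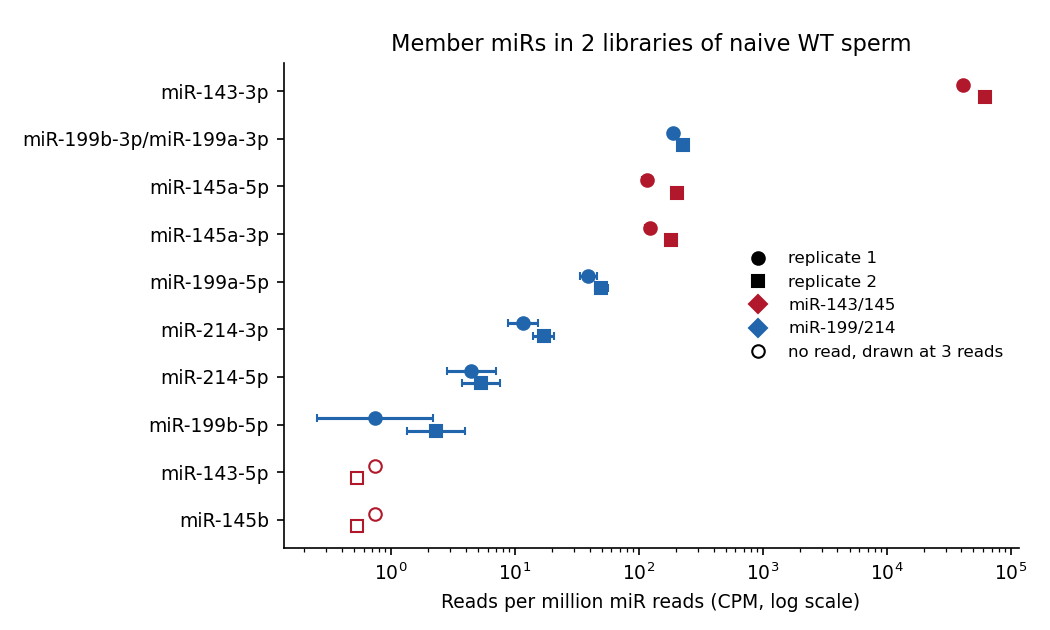
Abundance of the 10 member entries in CPM on a log scale, with circles for replicate 1, squares for replicate 2 and bars for Wilson 95% intervals, which are hidden by the symbols where narrow. Open symbols mark entries with no read, drawn at the value of 3 reads. miR-143-3p lies at 40849 and 61894 CPM and no other member above 226 CPM.

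The miR-143/miR-145 entries together made up 4.11% (4.09% to 4.13%) of replicate 1 and 6.23% (6.21% to 6.25%) of replicate 2, out of all miR reads. The miR-199/miR-214 entries held 0.0245% (0.0231% to 0.0261%) and 0.0300% (0.0286% to 0.0315%). The first sum was 167 times the second in replicate 1 (exact 95% interval 157 to 178) and 208 times in replicate 2 (198 to 218), a mean log2 ratio of 7.54 ± 0.22 (SD, n = 2), so the gap between the groups was far larger than the difference between the libraries. It rested on miR-143-3p. The miR-145a entries alone were 0.969 times the miR-199/miR-214 sum in replicate 1 (0.886 to 1.06) and 1.28 times in replicate 2 (1.20 to 1.37). Thus the miR-145a arms and the miR-199/miR-214 genes were at similar levels, and their order was not the same in both libraries.

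The ratio of miR-143-3p to the miR-145a entries was 172 in replicate 1 (161 to 183) and 161 in replicate 2 (154 to 168). These intervals overlap, although both miRs took a larger share of replicate 2. In the same way the miR-199 entries exceeded the miR-214 entries by 14.3 times (11.1 to 18.7) and 12.5 times (10.4 to 15.1), and miR-199a-5p exceeded miR-214-3p, whose hairpins share Dnm3os, by 3.36 times (2.41 to 4.76) and 2.93 times (2.31 to 3.73). Since miR-199a also comes from Mir199a-1, these ratios do not compare a single pair of hairpins.

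In GENCODE M21, Mir143 (ENSMUSG00000065445.3) spans positions 61649196 to 61649258 and Mir145a (ENSMUSG00000065592.2) positions 61647825 to 61647894 of the minus strand of chromosome 18, with 1301 bases between them. No other gene of that annotation overlaps them, and in RefSeq both lie within the span of the lncRNA gene Carmn, positions 61645878 to 61665538. Mir145b (ENSMUSG00000098366.1) lies 7374304 bases from Mir145a on the same chromosome. To see how common so uneven a pair is, the most abundant entries of hairpins on the same strand and within 10000 bases of each other were compared for the other miRs, a comparison chosen after these values had been seen. It covered 51 pairs whose entries come from a single hairpin, with a median of 3.21 for the higher over the lower member. Each entry needed a read in each library and the summed read minimum used below for ratios between the libraries. Pairs whose lower member had no or few reads, which can be the most uneven, were therefore left out. How uneven those pairs were was not measured. miR-143-3p over miR-145a-5p gave 352 in replicate 1 and 305 in replicate 2. By the geometric mean of the libraries, which was 328 for this pair, 2 of the 51 pairs that passed were more uneven. Both had miR-127-3p as the higher member, of the imprinted cluster that also holds miR-433 and miR-431. miR-127-3p over miR-433-3p gave 403 in replicate 1 and 442 in replicate 2, a higher read ratio than that of the miR-143 and miR-145a pair in each library. miR-127-3p over miR-431-5p gave 202 and 552, and was more uneven in replicate 2 alone. Pairs of 1 cluster share members and are not independent, and ratios with few reads of the lower member carry a large counting error. No interval was computed for the ratios of these pairs. Whether the 2 miR-127-3p pairs were more uneven than the miR-143 and miR-145a pair beyond counting error was therefore not tested.

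**Figure D2:**
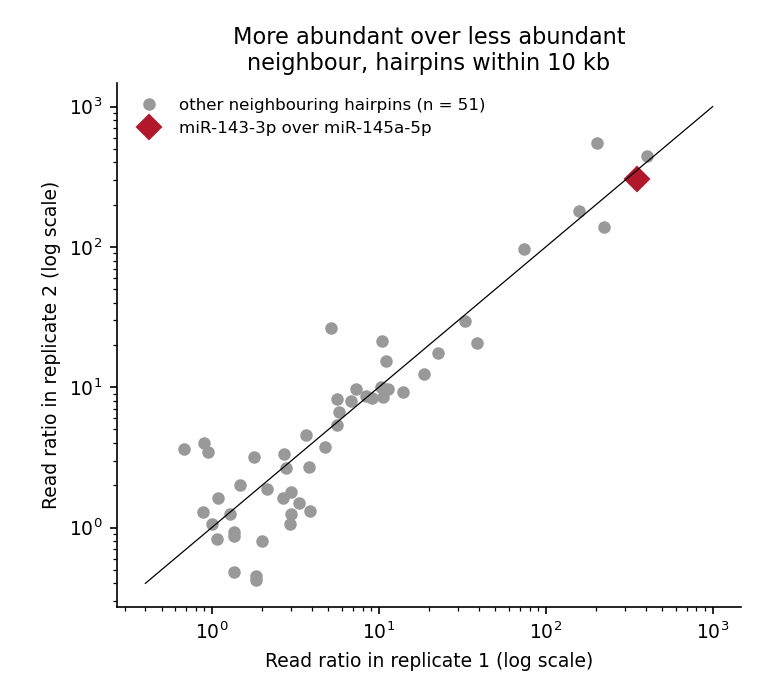
Read ratio of the more abundant to the less abundant entry for hairpins within 10000 bases on the same strand, replicate 1 on the x axis and replicate 2 on the y axis, both on log scales. Each grey point is 1 of the 51 other pairs whose entries passed the read minimum. The red diamond is miR-143-3p over miR-145a-5p, at 352 and 305, near the line of equal ratios.

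The use of the arms differed between the hairpins. miR-143 reads came from the 3p arm without exception. By counting error alone, the absence of miR-143-5p allows it a share of up to 0.00181% of the reads of both arms in replicate 1 and 0.000858% in replicate 2. How well miR-143-5p could be recovered and counted was not measured. For miR-145a the 3p arm held 51.2% of 963 reads in replicate 1 (48.0% to 54.3%) and 47.3% of 2176 reads in replicate 2 (45.2% to 49.4%), an almost even split. The miR-199 genes together had 82.7% (80.1% to 85.0%) and 81.3% (79.3% to 83.1%) of their reads on the 3p arm, and miR-214 had 72.3% (60.4% to 81.7%) and 76.2% (68.0% to 82.8%). In each library the intervals of miR-143, miR-199 and miR-145a did not overlap one another, and that of miR-214 overlapped with miR-199 alone.

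**Figure D3:**
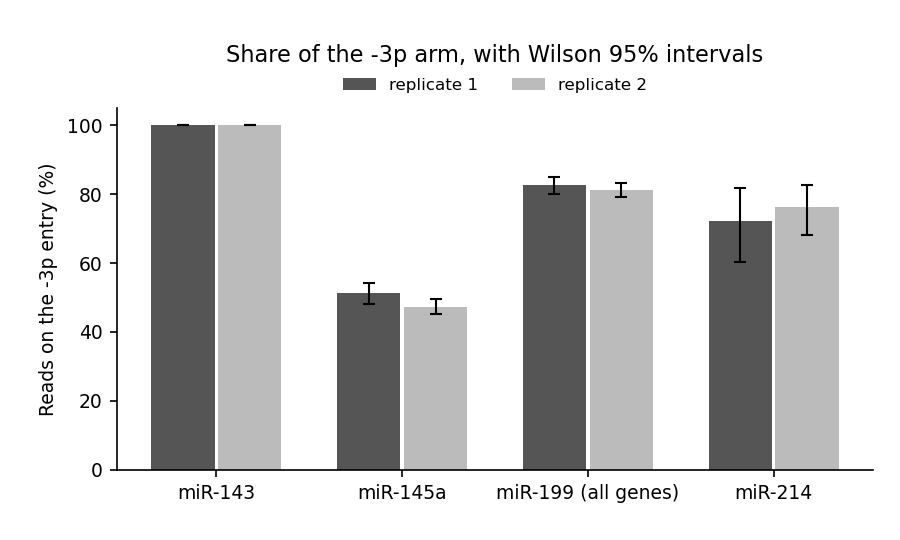
Percent of the reads of both arms that were counted on the 3p entry, for each hairpin name, in replicate 1 (dark bars) and replicate 2 (light bars), with Wilson 95% intervals. miR-143 is at 100% in both libraries and miR-145a near an even split, at 51.2% and 47.3%.

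On the 5p side the miR-199 genes can be separated where reads are matched without mismatches. The step that gave the counts is not given, so reads assigned to the other gene through a mismatch were not measured. miR-199b-5p made up 3 of the 161 reads of miR-199a-5p and miR-199b-5p in replicate 1, or 1.86% (0.636% to 5.33%), and 13 of 294 reads in replicate 2, or 4.42% (2.60% to 7.42%). The intervals overlap, and in both libraries miR-199a-5p supplied nearly all 5p reads. How the joined 3p reads divide between the genes was not measured.

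All 8 detected members had a higher CPM in replicate 2 than in replicate 1. For each entry that reached 10 reads when the libraries were added up, the log2 ratio of replicate 2 to replicate 1 was computed with 0.5 reads added to each count. Of the 323 entries that passed, 34.1% were higher in replicate 2, against 8 of the 8 members that passed. The median log2 ratio was 0.56 over these members and -0.29 over all 323 entries. The members lay between percentiles 78.6 and 96.3 of all entries. The ratio was 0.60 for miR-143-3p (exact 95% counting interval 0.59 to 0.61), 0.80 for miR-145a-5p (0.65 to 0.96) and 0.58 for miR-145a-3p (0.43 to 0.74). The interval of miR-143-3p lay within that of miR-145a-3p and below that of miR-145a-5p. Among the miR-199/miR-214 entries it was 0.25 for the joined 3p entry (0.12 to 0.38), 0.35 for miR-199a-5p (0.06 to 0.64), 0.54 for miR-214-3p (0.03 to 1.09), 0.24 for miR-214-5p (-0.63 to 1.19) and 1.47 for miR-199b-5p (-0.23 to 4.09). The intervals of the last 2 include no difference.

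The sums of the groups differed between the libraries by 0.60 for miR-143/miR-145 (0.59 to 0.61) and by 0.29 for miR-199/miR-214 (0.18 to 0.40) on the log2 scale. A single member, miR-199b-5p with its 3 and 13 reads, was more than 2-fold higher in replicate 2, against 8.67% of all 323 entries. No member was more than 2-fold lower, against 22% of all entries. With the TMM scaling of edgeR, which shifts every log2 ratio by 0.35 and the median of all entries to 0.06, the 8 members stayed higher in replicate 2 by construction, against 53.6% of all entries. miR-145a-5p then joined miR-199b-5p past 2-fold, against 12.1% of all entries.

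**Figure D4:**
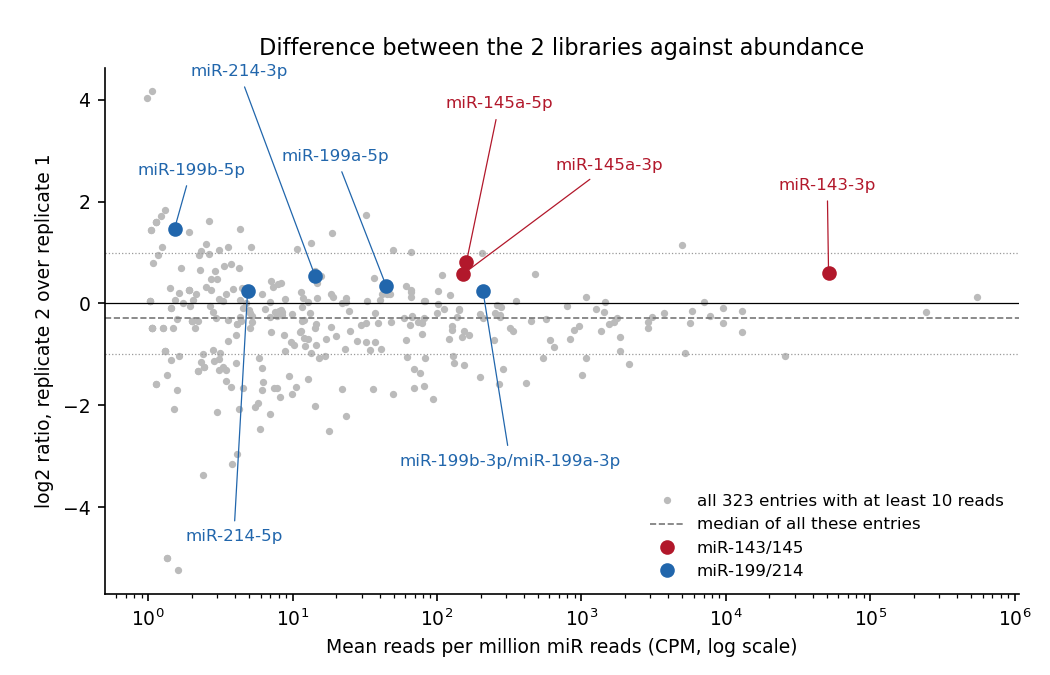
log2 ratio of replicate 2 to replicate 1 against mean CPM on a log scale for the 323 entries with at least 10 reads in both libraries together (grey), with the miR-143/miR-145 members in red and the miR-199/miR-214 members in blue. The dashed line is the median of all entries, at -0.29, the dotted lines mark 2-fold, and all 8 members lie above 0.

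With 2 libraries the pattern of a miR is a single ratio, and likeness in it is a description only. Among the 75 other entries that reached 1000 reads in sum, the log2 ratio nearest to that of miR-143-3p belonged to miR-145a-3p, which differed from it by 0.02. It was followed by miR-181c-5p, at 0.58 with 1538 and 3198 reads, and miR-351-5p, at 0.57 with 354 and 733 reads. The other arm of the miR-145a hairpin, miR-145a-5p, was at 0.80, farther from miR-143-3p than either of these.

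Other miRs known from smooth muscle, stroma and fibroblasts were compared as a list. It held 14 names with 30 entries, of which 22 passed the filter. Of these 22, 9 were higher in replicate 2, against 34.1% of all 323 entries. Their median log2 ratio was -0.10 and became 0.25 with TMM. It was 0.56 and 0.91 for the members, and -0.29 and 0.06 for all entries. A single entry of the list was more than 2-fold higher in replicate 2, against 8.67% of all entries. It was miR-195a-3p, with 6 and 18 reads and a log2 ratio of 1.03, named after its values were seen. No entry of the list was more than 2-fold lower, against 22% of all entries. The most abundant entries of the list were miR-22-3p, at 6846 and 3489 CPM, and miR-27b-3p, at 3228 and 2524 CPM. Its summed shares were 1.64% and 1.18%, where those of the members were 4.13% and 6.26%. Many of its miRs are made in many cell types. miR-490-3p and miR-490-5p, which are known from smooth muscle and are named here after their values were seen, had no read in either library.

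Markers of other cells were compared in the same way. Over all 323 entries, 34.1% were higher in replicate 2, with a median log2 ratio of -0.29. Of the 9 blood entries that passed, 8 were higher in replicate 2, with a median log2 ratio of 1.01, and the summed shares were 0.333% and 0.722%. The joined entry of miR-486b-5p and miR-486a-5p, known from red blood cells, held most of these reads, at 3104 and 6891 CPM. miR-142a-5p, known from white blood cells, was at 93.1 and 110 CPM. Whether the reads of a listed miR came from the cells it is listed for was not tested. All 5 germ cell entries that passed were lower in replicate 2, with a median of -1.45, led by miR-34c-5p at 2983 and 1314 CPM and miR-34b-3p at 403 and 134 CPM. The epithelial list was at 1.08% and 0.886% of the miR reads. Of its 11 entries that passed, 2 were higher in replicate 2, with a median of -0.20 that became 0.16 with TMM. These medians were near those of all entries, -0.29 and 0.06 with TMM. The most abundant epithelial entries were miR-141-3p, at 8365 and 7077 CPM, and miR-429-3p, at 1033 and 633 CPM.

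The lists of other muscle and of vessels, the latter of 1 name, held small shares of the miR reads in both libraries. Striated muscle was at 0.00227% and 0.00239% of the miR reads, nearly all from miR-133a-3p, with 70 and 111 reads, and miR-1a-3p, with 20 and 22 reads. The endothelial miR-126a-3p had 325 and 466 reads, or 80.3 and 82.5 CPM, and miR-126a-5p had none. In each library miR-126a-3p lay below the miR-145a arms and above miR-199a-5p, which was at 39.0 and 49.8 CPM. The part of blood, epithelial or germ cells in the higher share of the members in replicate 2 was not tested, and with 2 libraries it cannot be told apart from other differences between them.

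**Figure D5:**
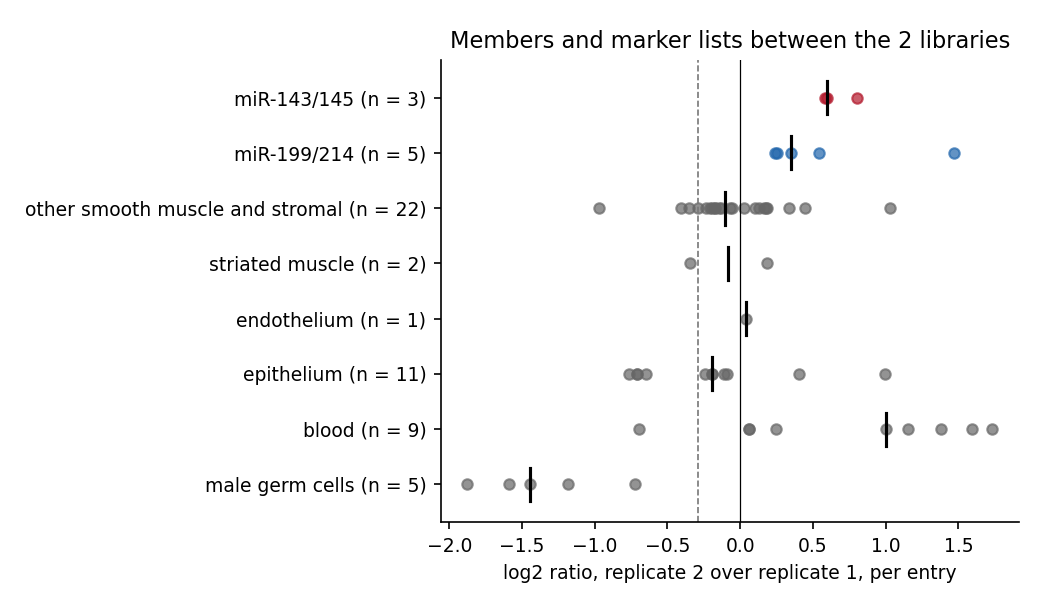
log2 ratio of replicate 2 to replicate 1 for each entry with at least 10 reads in both libraries together, for the member groups (red and blue) and for the marker lists (grey), with a black bar at the median of each row. The dashed line is the median of all 323 entries, at -0.29. The members and 8 of the 9 blood entries lie above 0 and all 5 germ cell entries below it.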

How the data were processed

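Small RNA from sperm of naive WT mice was sequenced in 2 libraries. The authors trimmed low-quality ends and adapters with cutadapt 1.8.1, kept reads of at least 15 bases, and mapped them with Bowtie 1.1.2, first to miR and piRNA sequences without mismatches. HTSeq and mm10/GRCm38 are named in the submitters' processing notes. The step that gave the counts and the miR release are not given in the sources used here. The authors deposited raw read counts per mature miR, unpooled. Matching without mismatches leaves reads with added end bases to the later steps, which allowed 1 mismatch. The labels name an RNA sample kit where the methods describe a small RNA preparation.

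The 5 summary lines of each table were left out. Reads listed under no miR made up 38.1% and 26.3% of all reads listed. The members and lists were chosen with earlier results of these data known. The text names all member entries, entries that share a seed with a member, the top entries of each list, and entries nearest to miR-143-3p in rank or ratio. Intervals are Wilson or exact binomial at 95%. Python 3.11.15, numpy 2.4.6, scipy 1.17.1 and matplotlib 3.10.9 were used, with edgeR 4.0.16 and DESeq2 1.42.0 in R 4.3.3 for library scaling alone. Ratios and scaling were tested on simulated counts. Alternatives were other scalings, denominators, read minimums, pseudocounts and sets of entries.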

Additional observations from a re-analysis of the deposited data

How the results depend on the processing

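With 2 libraries of 1 condition, the depth limits miR-214 and miR-199b-5p most. No paired analysis was possible because there is 1 group. A library alone lies within 1 SD of a mean of 2, so values without a replicate show no stability. For the miR-199 arms, leaving out the joined entry left no 3p reads and gave no value. The 3p share of miR-145a, 49.3% as a mean, was 51.2% without replicate 2, so its more abundant arm changed. The other scalings and denominators raise every ratio between the libraries by the same amount and could not turn a positive one.

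The miR-143/miR-145 sum of 51683 CPM was 35652 CPM of all reads listed, 251909 CPM without miR-10a-5p and miR-10b-5p in the total, and 312 CPM without miR-143-3p. The miR-199/miR-214 sum of 273 CPM was 186 and 1322 CPM with these denominators, and 65.1 CPM without its most abundant entry, which is also the joined one. The log2 ratio of the sums, 7.54, was 2.23 without the most abundant entry of each group, 7.92 with those alone, 1.61 for 5p and 7.83 for 3p entries, and 9.62 without the joined entry. The log2 ratio of the miR-143/miR-145 sum between the libraries, 0.60, was 0.95 with TMM, 0.94 with DESeq2, 0.85 per all reads, 0.76 without miR-10a-5p and miR-10b-5p, and 0.70 without miR-143-3p, an alternative chosen after seeing the data. For miR-199/miR-214, 0.29 became 0.64, 0.63, 0.54, 0.45 and 0.41. The members past 2-fold, 1 in number, were 2 with TMM, DESeq2 or all reads, 0 with at least 20 reads, which leaves out miR-199b-5p, and 3 past 1.5-fold.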

Other observations

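Within the epithelial list, miR-205-5p, a miR of basal and stratified epithelium, had the highest ratio between the libraries. It and the other miRs named here were chosen after their values were seen. It had 557 reads in replicate 1, or 138 CPM, and 1547 reads in replicate 2, or 274 CPM, a log2 ratio of 0.99 that was higher than that of every miR-143/miR-145 entry. The other arm, miR-205-3p, was at -0.09 with 6 and 8 reads, and miR-203-3p was at -0.20 with 160 and 195 reads. Of the 11 entries of the list that passed, 2 were higher in replicate 2. The 3p miRs of the miR-200 family in the same list lay between -0.71 for miR-200c-3p and -0.19 for miR-200a-3p, a range in which the higher values turn positive with TMM, which adds 0.35. Within the blood list miR-144-3p had 60 and 280 reads, or 14.8 and 49.6 CPM, while miR-223-3p, of myeloid cells, had 64 and 55 reads, or 15.8 and 9.74 CPM. The members of each of these lists therefore did not all differ in the same direction between the libraries.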
